A study of Mus musculus with 2 samples.

Results

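The tumour necrosis factor (TNF) superfamily was examined in sorted cells from Peyer's patches, which are groups of lymphoid follicles in the mouse small intestine. Members were taken by gene name from the array annotation: every gene whose name starts with Tnfsf or Tnfrsf, together with Tnf, Lta, Ltb, Ltbr, Cd40, Cd40lg, Fas, Fasl, Cd27, Cd70, Ngfr and Eda2r. Tnfsf11, Tnfrsf11a and Tnfrsf11b were left out by that rule. It gave 41 genes, read by 67 probes, of 23666 genes named on the array.

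Cells were released from the patches with dispase, collagenase and DNase and sorted by their reporter into an S100A4-positive and an S100A4-negative population. Both came from C57BL/6 mice that are S100A4-GFP transgenic, so the reporter was common to both groups, and positive means that the cell carried the S100A4 reporter signal; the age and sex of the mice, how many were pooled, and the promoter that drives the reporter are not given in the sources used here. S100A4 is a small calcium-binding protein also called fibroblast-specific protein. Total RNA of each population was labelled with Cy3 and hybridised to 1 array per population, both on 1 slide read in 1 scan. With 1 array per group no test between the groups was possible and no difference below has a replicate check: a difference describes these arrays.

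Ligands of this family are mostly trimers held on the cell surface or shed from it, and their receptors are made of cysteine-rich repeats. Receptors with a death domain, such as those for TNF and Fas ligand, can start cell death, and most others recruit TRAF adaptors that switch on NF-kB. In lymphoid tissue the family sets B cell survival (BAFF and its receptors), organ formation (lymphotoxin and its receptor) and the costimulation of T cells (OX40, CD27, GITR and their ligands).

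Signals below are the scanner software's processed intensities, and a difference is the log2 signal of the S100A4-positive array minus that of the S100A4-negative array, after each array was divided by its own 75th percentile (445.9 for S100A4-negative and 287.3 for S100A4-positive cells). The ± after a difference is the software's error for the spots, which covers the scan and not the cells. A gene was counted as higher or lower where it differed by at least 2-fold. A probe was taken as detected where the software marked it well above background, and a gene detected on 1 array has only a bound on the other, given as "at least". Of 59305 spots that are not controls, 53.3% were detected in S100A4-negative and 52.3% in S100A4-positive cells, with no saturation. S100a4 itself read 1057 in S100A4-negative and 119341 in S100A4-positive cells, a difference of 7.45 ± 0.20 on the log2 scale, or 175-fold.

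The cell types in each population were read from marker lists. On the positive array 7 of 7 mononuclear phagocyte markers (summed signal 3927 in S100A4-negative and 163058 in S100A4-positive cells), 5 of 5 classical dendritic cell markers (3044 and 23525) and 5 of 5 innate lymphoid cell markers (4016 and 40371) were higher, while Zbtb46, Clec9a and Il23r were not well above background in S100A4-negative cells. On the negative array 5 of 5 B cell markers (161038 and 5383), 5 of 5 T cell markers (45653 and 2147), 3 of 4 plasma cell markers (60339 and 4430) and 5 of 6 epithelial markers (9612 and 563) were higher, and Pax5 was not well above background in S100A4-positive cells. Of 5 fibroblast markers 1 was higher and 1 lower on the positive array (424 and 343), and 3 of 4 endothelial markers were higher there (270 and 934). Pdgfra was detected on neither array, Col1a1 in S100A4-negative cells alone, and the endothelial Cdh5 and Kdr in S100A4-positive cells alone. Which share of any difference below goes with this difference in cell makeup was not tested, and fewer cells of a type and less RNA per cell cannot be told apart in these sorted bulk samples.

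Sequences are given first for the 7 genes with the largest differences in either direction. Each probe is 60 bases long, and its first 30 bases are shown in 5′ to 3′ order, with the probe's position on mouse build mm9 as the array files give it; whether it lies in an exon or an untranslated region was not determined here.
Tnfsf4, brighter probe (chr1:163348347-163348406, plus strand): gtgctacaaatacagtgcttatctcttaaa
Tnfsf4, other probe (chr1:163348278-163348337, plus strand): ttttggaccattttcaatagaagattgaaa
Tnfsfm13 (chr11:69496657-69496716, minus strand): atttcccattccaaaaactggctagacaaa
Tnfrsf25 (chr4:151494160-151494219, plus strand): ggttgctcagctgttaattagcccgagttt
Ltbr (chr6:125256614-125256673, minus strand): ggagagtttgggaacaggagaaaaatgaca
Tnf, brighter probe (chr17:35336795-35336854, minus strand): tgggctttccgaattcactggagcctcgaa
Tnf, other probe (chr17:35336967-35337026, minus strand): ttattgtctactcctcagagcccccagtct
Tnfrsf13c, brighter probe (chr15:82052225-82052284, minus strand): ataaaatggactaacacaggcactatgagt
Tnfrsf13c, other probe (chr15:82054616-82054675, minus strand): atcagaccgagtgcttcgaccctctggtga
Fasl (chr1:163711056-163711115, minus strand): gcaatgatgtctgtgtgtttgtatgtatga
Both probes of Tnfsf4, Tnf and Tnfrsf13c gave the same direction, and the other 4 genes had 1 probe each. The Tnfsfm13 probe is annotated with transcripts of both Tnfsf13, which encodes APRIL, and Tnfsfm13, the read-through transcript of Tnfsf12 and Tnfsf13, so APRIL was read only through this shared probe.

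Of the 41 genes, 37 were detected on at least 1 array and 32 on both. Cd40lg, Eda2r, Tnfrsf8 and Tnfsf18 were detected on neither array. Among the 32 genes detected on both arrays, 14 were at least 2-fold higher in S100A4-positive cells (43.8%), 8 were lower (25.0%) and 10 lay within 2-fold. Of all 12325 genes detected on both arrays, 17.7% were higher and 16.4% were lower, so the members' share of higher genes was above that of all genes and their share of lower genes was nearer to it. Of the other 5 genes, Tnfsf4, Tnfsf12 and Tnfsf15 were detected in S100A4-positive cells alone and Fasl and Tnfrsf17 in S100A4-negative cells alone. With these entered at their bounds, 17 were higher and 10 lower, against 21.4% higher and 17.0% lower over 14528 genes; such genes had to differ, so the counts including them describe and do not add support. The median difference was 0.71 over the 32 members and 0.00 over all genes detected on both arrays.

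These directions are relative to the bulk of each array's signal. Where the arrays were instead scaled on 245 spike-in control spots, the median of all genes moved from 0.00 to -2.45 and the members' split from 17 higher and 10 lower to 4 higher and 22 lower, while that of all genes moved from 3108 higher and 2476 lower to 580 higher and 12058 lower. Of the 17 higher genes, 7 stayed above 0 on that scale (Tnfsf4, Tnfsfm13, Tnfrsf25, Ltbr, Tnf, Tnfrsf9 and Tnfrsf1a), 8 fell below 0, and Tnfsf12 and Tnfsf15 had no fold left at their bounds. Without any scaling the median of all genes was -0.58 and 14 members were higher and 11 lower.

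**Figure D1:**
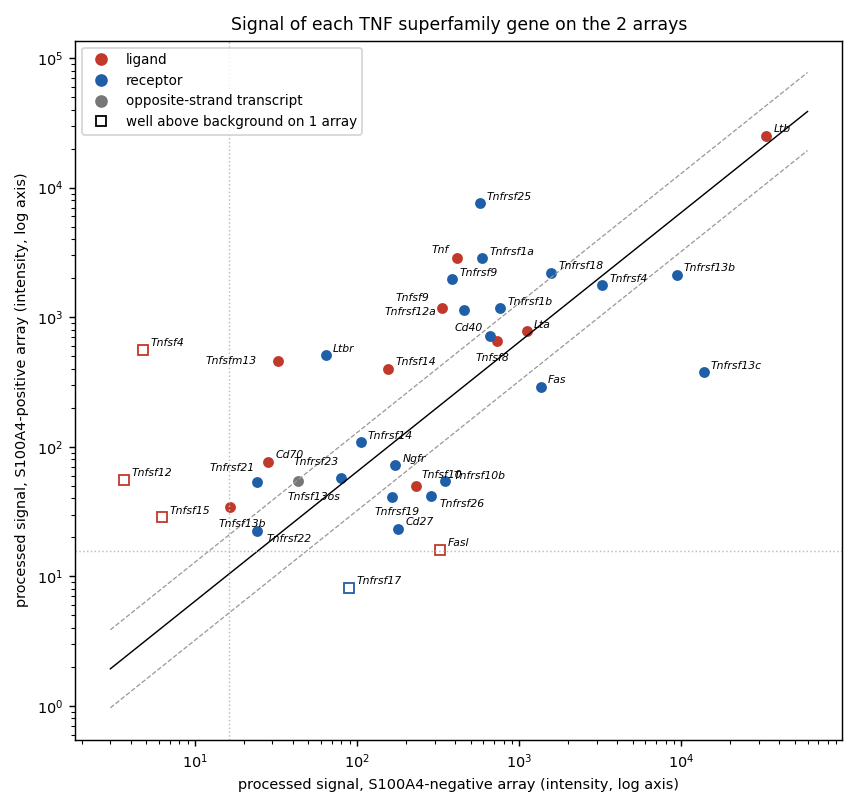
Processed signal of each detected TNF superfamily gene on the S100A4-negative array (x axis, log scale) and the S100A4-positive array (y axis, log scale), 1 array per group, with ligands in red and receptors in blue. The solid line marks equal signal after scaling on the 75th percentile and the dashed lines 2-fold either way; open squares were well above background on 1 array, dotted lines mark each array's lowest detected signal, and Tnfrsf13c (13703 and 376) and Tnfrsf25 (569 and 7591) lie far off the line on opposite sides.

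Ligand genes were mostly higher in the S100A4-positive cells, though on the spike-in scale their median turned to -0.47, beside -2.45 over all genes. Of 16 ligand genes 14 were detected, 9 of them higher, 2 lower and 3 within 2-fold, with a median difference of 1.85 at bounds. Of the 10 detected on both arrays 6 were higher and 1 was lower, against the 17.7% and 16.4% of all genes.

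Tnfsf4 encodes OX40 ligand, a costimulator on antigen-presenting cells and innate lymphoid cells. Its brighter probe read 4.80 in S100A4-negative cells, not well above background, and 560 in S100A4-positive cells, at least 53.8-fold higher. Its other probe read 6.18 and 297, also detected on the positive array alone, which makes a log2 difference of at least 4.83. Tnfsf4 had the highest bound of the family, and it came to 3.48 with normexp background correction and to 3.25 on the spike-in scale.

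The probe shared by Tnfsfm13 and APRIL, a survival factor for plasma cells, read 32.4 in S100A4-negative and 461 in S100A4-positive cells, a difference of 4.47 ± 0.26. That is 22.1-fold, and 1.70% of all genes detected on both arrays had a larger one. With normexp background correction it was 2.83.

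Tnf encodes the inflammatory cytokine TNF. It read 414 in S100A4-negative and 2842 in S100A4-positive cells, a difference of 3.41 ± 0.20 or 10.65-fold. Its other probe read 158 and 978, a difference of 3.26, so the probes lay within the error of each other, and 3.27% of genes had a larger difference than the brighter probe.

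Tnfsf9, the ligand of CD137, read 334 and 1167 in S100A4-negative and S100A4-positive cells, a difference of 2.44 ± 0.20 or 5.43-fold. Cd70, the ligand of CD27, read 28.1 and 76.1, a difference of 2.07 ± 0.28 or 4.20-fold. Tnfsf14, or LIGHT, which binds the lymphotoxin beta receptor and HVEM, read 156 and 399, a difference of 1.99 ± 0.21 or 3.97-fold. All 3 were higher relative to the bulk of the arrays, and all 3 turned on the spike-in scale, to -0.06, -0.43 and -0.51. With normexp Cd70 came to 1.04.

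Tnfsf12, which encodes TWEAK, read 3.65 in S100A4-negative cells, not well above background, and 55.8 in S100A4-positive cells, at least 5.36-fold higher. Tnfsf15, or TL1A, read 6.24 and 28.5, at least 2.74-fold higher on the positive array, and its other probe gave a bound of 0.69, under 2-fold. Tnfsf13b, which encodes the B cell survival factor BAFF, read 16.4 and 34.4, a difference of 1.71 ± 0.38 or 3.26-fold. These are dim: the BAFF probe stood at 1.503 and 1.873 times its local background, its other 2 probes were detected on neither array, and Tnfsf13b and Tnfsf15 both came to 0.83, under 2-fold, with normexp background correction, where Tnfsf12 came to 1.17. On the spike-in scale Tnfsf13b was at -0.79 and the other 2 had no fold.

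The lower ligands were Fasl and Tnfsf10, which encode the death ligands Fas ligand and TRAIL. Fasl read 324 in S100A4-negative cells and 15.9 in S100A4-positive cells, where it was not well above background, at least 13.1-fold lower, and with normexp it came to -1.83 on the log2 scale. Tnfsf10 read 230 and 50.1, a difference of -1.56 ± 0.22 at its brighter probe, and its other probe gave 0.31, the opposite sign. The median over its probes was -0.62, and normexp gave -0.83 for the brighter probe, both under 2-fold.

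Lymphotoxin alpha and beta, and CD30 ligand, lay within 2-fold. Ltb read 33332 in S100A4-negative and 25237 in S100A4-positive cells, a difference of 0.23 ± 0.20, and was bright on both. Lta read 1113 and 778, a difference of 0.12 ± 0.20. Tnfsf8, or CD30 ligand, read 728 and 652, a difference of 0.48, with 0.67 at its other probe. The opposite-strand transcript Tnfsf13os read 43.3 and 54.0, a difference of 0.95 ± 0.27, just short of 2-fold.

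**Figure D2:**
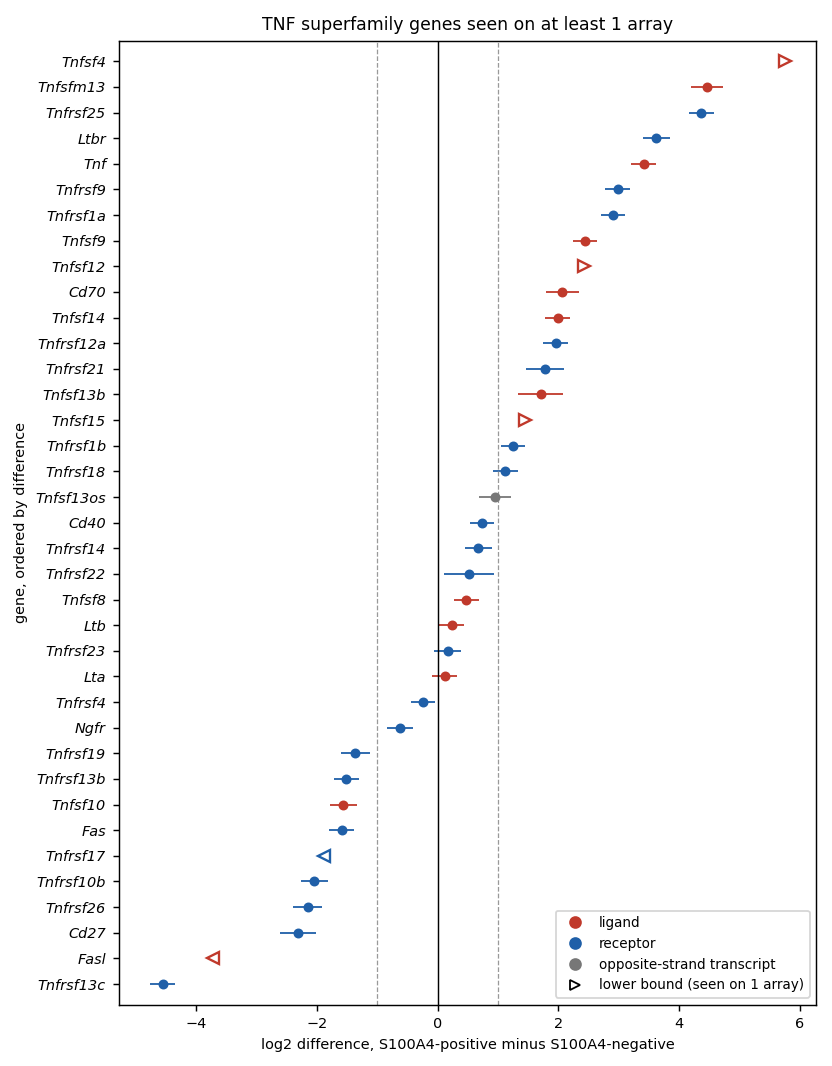
Log2 difference, S100A4-positive minus S100A4-negative, of each of the 37 detected TNF superfamily genes in order, with 1 array per group, whiskers for the scanner software's error and open triangles for lower bounds of genes detected on 1 array. Tnfsf4, Tnfsfm13 and Tnfrsf25 lie at the high end and Tnfrsf13c and Fasl at the low end; dashed lines mark 2-fold after scaling on the 75th percentile, and on the spike-in scale every point moves to the left, with 8 of the 17 higher genes passing below 0.

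Receptor genes went both ways. Of 24 receptor genes 22 were detected, 8 higher, 8 lower and 6 within 2-fold. Of the 21 detected on both arrays 8 were higher (38.1%) and 7 were lower (33.3%), both shares above the 17.7% and 16.4% of all genes. The receptors' median was 0.34 at bounds, beside 0.00 over all genes. It was -0.29 without scaling and -2.15 on the spike-in scale, where the median of all genes was -0.58 and -2.45. The sign of the receptors' median thus depended on the scaling.

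Tnfrsf25 encodes death receptor DR3, the receptor of TL1A. It read 569 in S100A4-negative and 7591 in S100A4-positive cells, a difference of 4.37 ± 0.20 or 20.7-fold, which made it the highest of the receptors on these arrays, and 1.85% of genes had a larger difference. On the spike-in scale it was at 1.87.

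Ltbr encodes the lymphotoxin beta receptor, which stromal and myeloid cells use to receive signals from lymphocytes. It read 64.0 and 508, a difference of 3.62 ± 0.22 or 12.3-fold. It rests on 1 probe, which stood at 2.07 times its local background in S100A4-negative cells, and it came to 2.61 with normexp.

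Tnfrsf9, or CD137, a costimulatory receptor, read 385 and 1957, a difference of 2.98 ± 0.20 or 7.90-fold, and its other probe read 76.4 and 554, a difference of 3.49. Tnfrsf1a, the death-domain receptor for TNF, read 587 and 2841, a difference of 2.91 ± 0.20 or 7.505-fold, with 3.29 at its other probe. Tnfrsf1b, the TNF receptor without a death domain, read 765 and 1175, a difference of 1.25 ± 0.20 or 2.38-fold, with 0.97 at its other probe. The TNF receptors were thus both higher by the 75th percentile, with Tnfrsf1b at 0.62 without scaling and at -1.24 on the spike-in scale.

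Tnfrsf12a, or Fn14, the TWEAK receptor, read 457 and 1141, a difference of 1.95 ± 0.20 or 3.87-fold. Tnfrsf21, death receptor DR6, read 24.1 and 53.2, a difference of 1.78 ± 0.31 or 3.43-fold, and at least 1.96 at its other probe. Tnfrsf18, or GITR, a costimulatory receptor of regulatory T cells and innate lymphoid cells, read 1573 and 2204, a difference of 1.12 ± 0.20 or 2.17-fold. Tnfrsf21 was at 0.81 with normexp and Tnfrsf18 at 0.49 without scaling, and on the spike-in scale Tnfrsf12a, Tnfrsf21 and Tnfrsf18 turned to -0.54, -0.72 and -1.38.

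The B cell receptors of BAFF and APRIL were all lower in the S100A4-positive cells. Tnfrsf13c encodes the BAFF receptor, on which mature B cells depend for survival. It read 13703 in S100A4-negative and 376 in S100A4-positive cells, a difference of -4.55 ± 0.20, or 23.5-fold lower, and 0.316% of genes detected on both arrays had a smaller one. Its other probe read 455 and 19.1, a difference of -3.94.

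Tnfrsf13b, or TACI, a receptor for BAFF and APRIL, read 9360 and 2115, a difference of -1.51 ± 0.20 or 2.85-fold lower, and its other probes gave -1.05 and -2.05. Tnfrsf17, or BCMA, the receptor of plasma cells, read 89.5 and 8.15, detected on the negative array alone and at least 3.67-fold lower. The median of the 5 B cell markers was -5.80. That of the 4 plasma cell markers was -3.20, with 1 of them higher. The part of either list in the differences of these receptors was not tested. With normexp the bound of Tnfrsf17 was -0.60, under 2-fold.

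Cd27, a costimulatory receptor of T cells, read 179 and 23.2, a difference of -2.31 ± 0.30 or 4.95-fold lower. Fas, the death receptor, read 1355 and 291 at its brightest probe, a difference of -1.59 ± 0.20 or 3.002-fold lower. Tnfrsf10b, the receptor of TRAIL, read 347 and 54.3, a difference of -2.04 ± 0.23 or 4.12-fold lower, and at most -1.38 at another probe. With normexp Cd27 came to -1.01 and Tnfrsf10b to -1.35. The median of the 5 T cell markers was -3.37, and its part in these results was not tested.

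Tnfrsf26, a relative of the TRAIL decoy receptors, read 285 and 41.4, a difference of -2.15 ± 0.24 or 4.44-fold lower. Tnfrsf19, or TROY, read 164 and 41.2, a difference of -1.36 ± 0.24 or 2.57-fold lower, at 1 of its 3 probes, and the other 2 probes were detected on neither array. Under normexp these came to -0.95 and -0.42, both under 2-fold.

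The 6 receptor genes within 2-fold were Ngfr, Tnfrsf4, Tnfrsf23, Tnfrsf22, Tnfrsf14 and Cd40. Tnfrsf4, or OX40, read 3236 and 1766, a difference of -0.24 ± 0.20. Cd40, through which T cells activate B cells and dendritic cells, read 664 and 712, a difference of 0.74 ± 0.20. Tnfrsf14, or HVEM, read 105 and 108, a difference of 0.68 ± 0.22, with 1.06 at its other probe. Ngfr, the low-affinity neurotrophin receptor, was at -0.62 ± 0.22. The TRAIL decoy receptors Tnfrsf23 and Tnfrsf22 were at 0.17 ± 0.23 and 0.52 ± 0.41, and the other Tnfrsf22 probe gave -0.69 at its bound. Whether the probes of Tnfrsf23, Tnfrsf22 and their relative Tnfrsf26 share signal was not tested.

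Set beside their receptors, the ligands fell into different patterns of pairing. Tnf with Tnfrsf1a, Tnfsf9 with Tnfrsf9, Tnfsf12 with Tnfrsf12a and Tnfsf15 with Tnfrsf25 were higher on both sides, although Tnfsf9 and Tnfrsf12a turned on the spike-in scale and Tnfsf12 and Tnfsf15 lost their fold there. Fasl with Fas and Tnfsf10 with Tnfrsf10b were lower on both sides at their brightest probes, while other probes gave -0.12 for Fas and 0.31 for Tnfsf10. With normexp Tnfsf10 came to -0.83, and Tnfsf15 and Tnfsf13b came to 0.83, all under 2-fold. Cd70 with Cd27 (2.07 and -2.31) and Tnfsf13b with Tnfrsf13c (1.71 and -4.55) went opposite ways, with Cd70 and Tnfsf13b turning on the spike-in scale. Tnfsf4 was higher while OX40 stayed within 2-fold, and Ltbr was higher while Ltb stayed within 2-fold. Ltbr and its other ligand Tnfsf14 were both higher (3.62 and 1.99), as were Tnf and Tnfrsf1b (3.41 and 1.25). Of these, Tnfsf14 and Tnfrsf1b turned on the spike-in scale. Tnfrsf14 stayed within 2-fold beside Tnfsf14, as did Lta beside Tnfrsf1a. The probe shared by Tnfsfm13 and APRIL (4.47) and Tnfrsf13b (-1.51) went opposite ways. Cd40 and Tnfrsf18 had no detected ligand, since Cd40lg and Tnfsf18 were seen on neither array. Protein and binding were not measured.

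**Figure D3:**
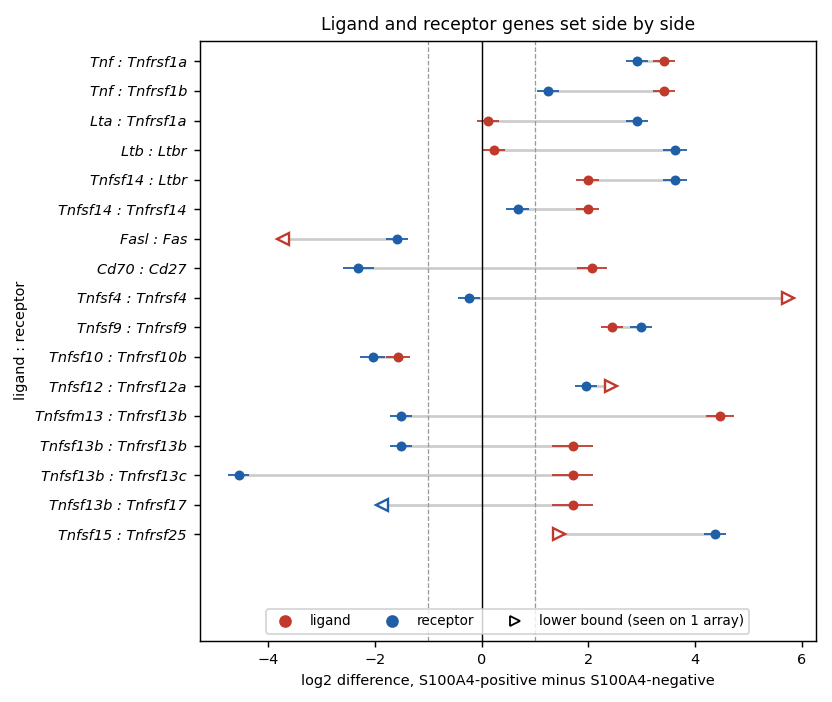
Log2 difference, S100A4-positive minus S100A4-negative, of ligands (red) and their receptors (blue), a line per pair, with the scanner software's error as whiskers and open triangles for lower bounds, 1 array per group. Tnf and Tnfrsf1a lie together on the right and Fasl and Fas on the left, while Tnfsf13b (1.71) and Tnfrsf13c (-4.55) lie on opposite sides; on the spike-in scale Tnfsf13b turns to -0.79.

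Among the called genes, Fas, Tnfsf10, Tnfrsf1b and Tnfsf15 each had a detected probe short of 2-fold, and the probes of Tnfrsf14, which was not called, also lay on either side of it. The probes of Fas and Tnfsf10 lay furthest apart among these and are shown for that reason, again as the first 30 bases on build mm9.
Fas, brightest probe (chr19:34402164-34402223, plus strand): gaagaccttccattgatggacagttctttt
Fas, upstream probe (chr19:34383733-34383792, plus strand): ggagagactctttaaaatgaaaacacaata
Fas, probe on another chromosome (chr4:40555124-40555183, minus strand): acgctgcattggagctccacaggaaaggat
Tnfsf10, brighter probe (chr3:27238508-27238567, plus strand): gggaaatgttaaactttgtaaactctgaaa
Tnfsf10, other probe (chr3:27241288-27241347, plus strand): agcgcccctgacaacagcgcccctgacaac
The brightest Fas probe gave -1.59, while the upstream one on the same chromosome read 195 and 116, a difference of -0.12. The Fas probe placed on chromosome 4, away from the gene on chromosome 19, gave -1.82 (279 and 51.1). The other Tnfsf10 probe, which read 54.0 and 43.2, starts with a 15-base unit repeated in tandem, and no such repeat was found in the first 30 bases of any other member's probe.

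Many members sit side by side in the genome, and 24 of the 41 lie in 9 loci where neighbouring probes are at most 500 kb apart. On chromosome 17 Tnfsf9 (2.44), Cd70 (2.07) and Tnfsf14 (1.99) lie within 82.2 kb and had like differences, which all turned on the spike-in scale. Also on chromosome 17, Tnf (3.41) lies between Ltb (0.23) and Lta (0.12) within 7.24 kb, and it was higher while both of its neighbours lay within 2-fold. On chromosome 6 Cd27 (-2.31), Ltbr (3.62) and Tnfrsf1a (2.91) lie within 129 kb and went opposite ways. On chromosome 1 Tnfsf4 (at least 5.75) and Fasl (at most -3.71) lie at the ends of a 363 kb stretch, with the undetected Tnfsf18 between them. On chromosome 7 Tnfrsf26 (-2.15), Tnfrsf22 (0.52) and Tnfrsf23 (0.17) lie within 57.8 kb. On chromosome 11 Tnfsfm13, Tnfsf12 and Tnfsf13os lie within 7.99 kb and were at 4.47, at least 2.42 and 0.95. Neighbours thus shared a direction in some loci and not in others.

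**Figure D4:**
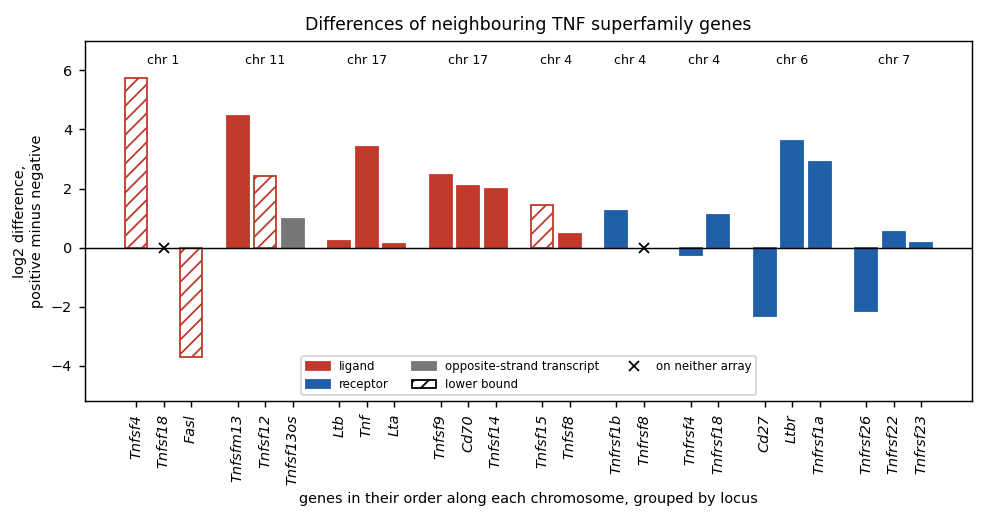
Bars show the log2 difference, S100A4-positive minus S100A4-negative (y axis), of genes in the 9 loci that hold several members, in their order along each chromosome; hatched bars are lower bounds and crosses mark genes detected on neither array, with 1 array per group. Tnf stands out between Ltb and Lta, and the chromosome 6 locus holds bars on both sides of 0; on the spike-in scale the 3 bars of the Tnfsf9 locus turn below 0.

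Upstream sequence was examined in RefSeq promoter windows (build GRCm38.p6), limited here to the 250 bases before each annotated start. Of the 41 genes 31 had a window, 35 windows in all. The NF-kB consensus motif, searched by that name on both strands with overlapping matches counted apart, was present in 4 of the 35 (11.4%) and in 7.25% of all 32851 windows. The 4 belong to Tnfrsf9, Ltb, Tnfrsf25 and Tnfrsf8, of which Tnfrsf9 and Tnfrsf25 were higher, Ltb lay within 2-fold and Tnfrsf8 was not detected. The windows of Tnfrsf9 and Ltb are shown because they hold a match, and that of Tnf for comparison with its neighbour Ltb; capitals mark the match.
Tnfrsf9, downstream start (chr4:150927749-150927998, plus strand): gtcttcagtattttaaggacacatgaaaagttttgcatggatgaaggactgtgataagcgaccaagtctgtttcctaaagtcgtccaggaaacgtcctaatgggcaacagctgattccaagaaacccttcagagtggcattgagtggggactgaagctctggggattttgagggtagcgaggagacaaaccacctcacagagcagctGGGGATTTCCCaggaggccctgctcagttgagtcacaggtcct
Ltb (chr17:35194257-35194506, plus strand): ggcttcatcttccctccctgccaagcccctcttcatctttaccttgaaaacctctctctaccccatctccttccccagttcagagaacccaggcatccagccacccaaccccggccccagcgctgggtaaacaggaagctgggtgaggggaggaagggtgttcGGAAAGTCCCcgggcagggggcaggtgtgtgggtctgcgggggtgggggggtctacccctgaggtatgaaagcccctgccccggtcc
Tnf (chr17:35202008-35202257, minus strand): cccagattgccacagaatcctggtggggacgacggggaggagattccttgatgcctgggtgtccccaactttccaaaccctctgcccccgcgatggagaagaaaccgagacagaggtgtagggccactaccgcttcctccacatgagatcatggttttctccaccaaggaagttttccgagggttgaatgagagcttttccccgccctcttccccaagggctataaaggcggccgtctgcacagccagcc
The match starts 43 bases before the downstream Tnfrsf9 start, with an overlapping match 42 bases before it, and 87 bases before the Ltb start. The Tnf window held none of these letters, which says only that they are not in this window.

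The signalling genes downstream of the receptors were read from a list of 40 genes, all detected on both arrays. It held adaptors, kinases, NF-kB factors, inhibitors and linear ubiquitin genes, and also Adam10 and Adam17, which were listed for ligand shedding. Of the 40, 11 were higher (27.5%), 1 was lower and 28 lay within 2-fold, against 17.7% and 16.4% of all genes. On the spike-in scale none was higher and 32 were lower, while of all 14528 genes 580 were higher and 12058 lower. Their median was 0.21.

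The largest differences towards S100A4-positive cells were those of Cflar, which encodes the caspase-8 inhibitor FLIP, and Nfkbia, which encodes the NF-kB inhibitor IkB alpha. Cflar read 856 in S100A4-negative and 3915 in S100A4-positive cells, a difference of 2.83 ± 0.20 or 7.10-fold, and its 5 probes ranged from 0.51 to 3.14. Nfkbia read 15482 and 47858, a difference of 2.26 ± 0.20 or 4.80-fold. Mlkl, the effector of necroptosis, read 22.4 and 52.4, a difference of 1.86 ± 0.33. Tnip1, a partner of the ubiquitin-editing inhibitor A20, read 5832 and 11788, a difference of 1.65 ± 0.20, and A20 itself, Tnfaip3, was at 1.58 ± 0.20. The other higher genes were Nfkbib, Relb, Nfkbie, Nfkb2, Traf1 and Map3k14, from 1.60 down to 1.02. At their brightest probes the NF-kB factors Nfkb1 (0.50), Rela (0.48) and Rel (-0.12), with Birc3 (0.22) and Bcl3 (-0.49), lay within 2-fold. The highest probes of Nfkb1 and Rel gave 1.69 and 1.21, past 2-fold, and the lowest Relb probe gave 0.90, under 2-fold. All 11 higher genes lost their direction or their 2-fold size on the spike-in scale.

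The lower gene was Traf5, an adaptor of lymphocyte receptors such as CD40 and CD27, which read 5056 and 572, a difference of -2.51 ± 0.20 or 5.70-fold lower, and its other probe gave the same value. The next were Casp8 at -0.97, the initiator caspase, Ikbkg at -0.92, a subunit of the IkB kinase, and Rnf31 at -0.75, of the linear ubiquitin complex, all within 2-fold. The probes of some signalling genes disagreed, from -0.35 to 2.25 for Ikbkb and from -0.38 to 1.89 for Traf6. Those of Cyld ranged from -0.66 to 1.02, and those of Ikbkg from -0.92, the value used, to 0. The highest probes of Tank and Adam17 gave 1.59 and 1.17, past 2-fold, though both genes were counted within it.

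**Figure D5:**
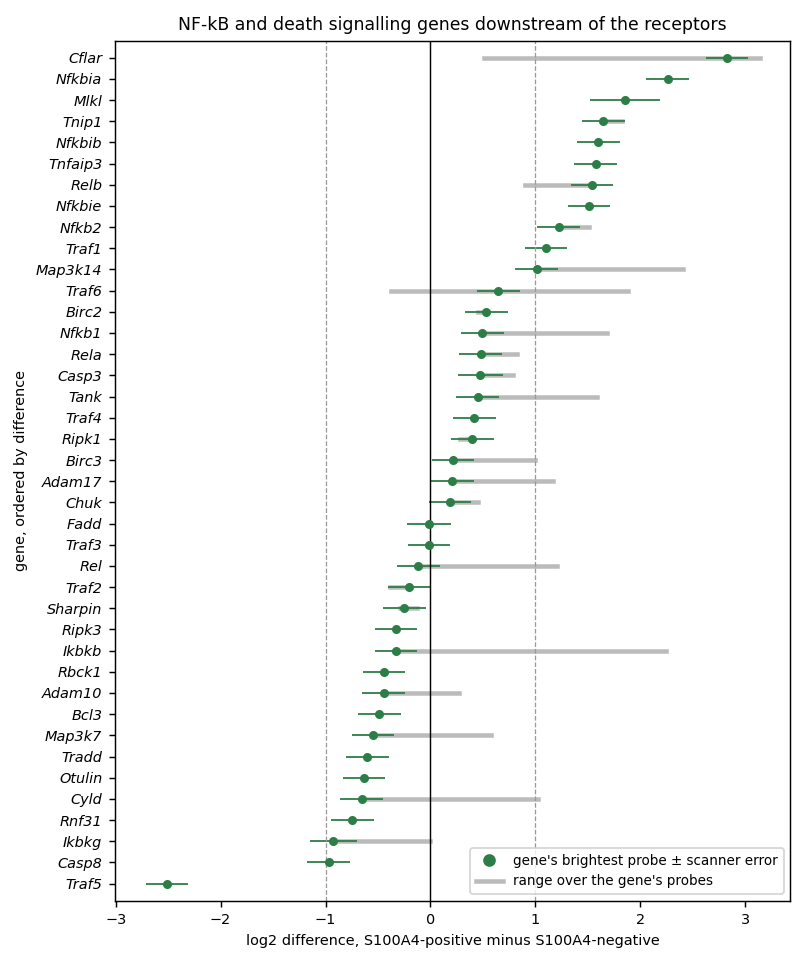
Log2 difference, S100A4-positive minus S100A4-negative (x axis), of 40 signalling genes in order, with points for each gene's brightest probe, whiskers for the scanner software's error and grey bars for the range over its probes, 1 array per group. Cflar and Nfkbia lie at the high end and Traf5 alone below the lower dashed line of 2-fold; on the spike-in scale all points shift to the left and none stays above the upper dashed line.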

How the data were processed

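The scanner tables of both arrays, 1 S100A4-negative and 1 S100A4-positive, were used. Per the file headers, the authors made them in Agilent Feature Extraction 10.7.1.1, while the submitters' processing notes name 9.5.1.1; the deposited processed signal is an intensity already corrected for background, with an error per spot, and was not normalized between arrays. The value table of the series, deposited intensities with a normalization not given in the sources used here, served as an alternative only. From the deposited intensities, log2 values were computed and centred on each array's 75th percentile over the 59305 spots that are not controls. Spots marked as outliers were then left out, and the remaining spots of 1 probe were averaged. A gene took its detected probe with the highest mean signal. For a gene detected on 1 array, the bound on the other array was that array's lowest detected signal (16.1 and 15.7), or the dim probe's value where higher. Probes spotted 10 times (289 probes) had a median SD between spots of 0.10 and 0.04 on the log2 scale.

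No test was possible with 1 array per group, and the number of arrays limits the precision. All detected members are named, with values for both arrays where they differed by 2-fold, and of the signalling genes the 4 largest differences each way; the other signalling genes named were chosen after their values were seen. Members and lists were chosen with earlier results of these data known. Alternatives were normexp correction with an offset of 50, quantile normalization (limma 3.58.1, R 4.3.3), the percentile over probes detected on both arrays, spike-in scaling, no scaling, other filters on dim probes, the median over probes, and the deposited table. Other steps used Python 3.11.15, numpy 2.4.6 and pandas 2.3.3, and were tested on simulated data.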

Additional observations from a re-analysis of the deposited data

How the results depend on the processing

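No paired analysis was possible because each group had 1 array. Of the 27 member genes at least 2-fold apart, 27 kept their direction under normexp correction, quantile normalization and no scaling. The same held with the percentile over probes detected on both arrays, no filter on dim probes, the deposited table and the median over probes. It also held for the 22 with a value where only probes detected on both arrays were used. No scaling and the other percentile move every gene by the same amount, under 2-fold, so no called gene could turn there. The filters on dim probes reused the main probe values, so they add no separate check of direction. On the spike-in scale 17 kept it: 7 of the 17 higher genes and the 10 lower ones, which that scale moves further down and so could not turn. The difference stayed at 2-fold for 20 with normexp, 24 without scaling and 26 with the median over probes. On the spike-in scale it did for 14, which were 4 of the higher genes and the same 10 lower ones.

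On the spike-in scale 5 probes were higher and 33 lower (23 and 15 with the 75th percentile), and 4 genes were higher and 22 lower (17 and 10). There 0 signalling genes were higher and 32 lower (11 and 1), beside 580 higher and 12058 lower of 14528 genes. On that scale the median was -0.47 for ligands, -2.15 for receptors and -2.45 for all genes (1.85, 0.34 and 0.00). The genes that turned were Cd70 (-0.43), Tnfrsf12a (-0.54), Tnfrsf18 (-1.38), Tnfrsf1b (-1.24), Tnfrsf21 (-0.72), Tnfsf13b (-0.79), Tnfsf14 (-0.51) and Tnfsf9 (-0.055). The spike-in spots differed by 1.85 between the arrays before scaling, and the cause was not tested. With normexp, 7 probes and 6 genes of the family and 2 signalling genes were lower, and the medians were 0.93 and 0.12. With quantile normalization 2 signalling genes were lower and the medians were 1.54 and 0.023, and the deposited table gave 2, 1.54 and 0.025. Without scaling 4 signalling genes were higher and 11 lower, beside 1888 higher and 5085 lower of 14528 genes. The medians were then 1.21 and -0.29, beside -0.58 over all genes. The median over probes gave 0.040 for receptors. The causes were not tested. The dim members Tnfsf12, Tnfsf15, Tnfsf13b, Tnfrsf22 and Tnfrsf21, and the signalling gene Mlkl, lie near background, where signal limits the precision. Other members stood low too, among them Cd70 at 1.73 and 2.41 times its local background and Tnfsf13os at 1.95 and 1.88. In S100A4-negative cells Tnfsfm13 stood at 1.84 times it. In S100A4-positive cells Cd27 stood at 1.70, Tnfrsf26 at 1.94 and Tnfrsf19 at 1.89 times it.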

Other observations

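A probe outside the naming rule also bears on the family. It is named for Ulk3, while an accession in its annotation belongs to Tnfrsf21, and it read 889 on the S100A4-negative and 864 on the S100A4-positive array, a log2 difference of 0.59, within 2-fold, beside 1.78 for the Tnfrsf21 probe used above.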
